A study of Mus musculus with 6 samples.

Results

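The Toll-like receptor genes Tlr1, Tlr2, Tlr4, Tlr6, Tlr7, Tlr8, Tlr9 and Tlr13 were followed together with Cd14 and Myd88 in RNA-seq of cocultures of CD8T cells with macrophages. The 10 genes were taken by name from the 54532 genes of the deposited count table, and all 10 were among the 14883 genes that passed a filter on low counts and were tested. CD8T cells had been isolated from mouse spleen, stimulated with anti-CD3/CD28 beads and cocultured with macrophages that had been activated with interferon-γ. In the control group (3 samples) the cocultured cells had received no DB2313, and in the DB2313 group (3 samples) they had received DB2313, which inhibits the transcription factor Spi1 (PU.1). The labels divide the samples in the same way but name DC cells as the cocultured cells. The libraries are described as CD8T cell RNA, but myeloid genes were abundant in them. Lyz2 was at 7702 ± 133 CPM and Cd8a at 119 ± 3.91 CPM in the control group (counts per 1000000 counts of the library after TMM scaling, SD, n = 3). The libraries are therefore treated here as RNA of the mixed culture. Over all libraries the dendritic cell genes Ccl22, Ccr7 and Fscn1 had 177035, 90532 and 58472 counts. Zbtb46 and Flt3 had 3657 and 3409, and Clec9a, Cd209a and Xcr1 had 463, 222 and 151. The macrophage genes Lyz2, Mpeg1, C1qb, Csf1r, C1qc and Adgre1 had 509644, 97628, 52608, 42139, 32455 and 19666 counts, but Cd163, Timd4 and Vsig4 had 113, 8 and 0. These counts are not scaled to gene length and do not rank the genes by level. Whether the cocultured cells were macrophages or dendritic cells was not tested. Strain, age and sex of the mice are not given for these cultures in the sources used here. Nor do these sources say whether the 3 samples of a group came from separate cultures, so the p-values measure the spread between these samples, which may be technical.

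Toll-like receptors are membrane sensors of microbial molecules. Those at the cell surface bind lipids and proteins of the microbial wall, and those in endosomes bind nucleic acids. Most of them signal through the adaptor Myd88, which recruits Irak kinases and Traf6 and leads to activation of NF-κB, while Tlr3 and, from endosomes, Tlr4 use the adaptor Ticam1. Macrophages, dendritic cells and neutrophils are rich in these receptors, and Cd14 is a surface protein of the same cells that hands lipopolysaccharide to Tlr4.

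Between 16611975 and 18596217 reads were counted on genes in a library. A list of 20 T cell genes, Cd3e and Cd8a among them, took 0.323% to 0.326% of the counts of the control libraries and 0.525% to 0.527% of the DB2313 libraries. All 20 were higher with DB2313 (median log2 fold change 0.61). Beside this and the counts of the lists below, 24.6% of all genes tested were lower and 20.8% were higher (adjusted p below 0.05 in the edgeR test). A list of 20 macrophage genes took 1.16% to 1.19% and 0.440% to 0.449%. Of these, 15 were lower, 3 were higher (Marco, Trem2 and Ms4a7) and 2 were not tested, since Timd4 was near 0 and Vsig4 at 0 in every library (median log2 fold change of those tested -0.99). Neutrophil genes took 0.193% to 0.194% and 0.0724% to 0.0743%, with 9 of 10 lower and Retnlg higher. Genes of conventional dendritic cells took 0.360% to 0.365% and 0.267% to 0.270%, with 6 of 8 lower, Flt3 higher and Xcr1 not past the test. Of 5 genes of plasmacytoid dendritic cells, Siglech was at 0 in every library, Klk1 was not tested, Cox6a2 and Ccr9 were higher and Pacsin1 did not pass. B cell genes took 0.00554% to 0.00586% and 0.00799% to 0.00818%, with 4 of 8 tested genes higher, Cd22 lower and Fcer2a not tested. With library size scaling the falls of Maf, Ccr7 and Cd22 did not pass. The part of these cell types in the results that follow was not tested. In such RNA, fewer cells of a type and less RNA per cell cannot be told apart.

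With DB2313, 8 of the 10 genes were lower, Tlr1 was higher, and Tlr7 did not pass the test. The falls ranged from 3.01-fold in Tlr13 to 1.19-fold in Myd88, and the rise of Tlr1 was 1.19-fold (n = 3 each). Among all genes tested, 24.6% were lower and 20.8% were higher at the same threshold (adjusted p below 0.05, quasi-likelihood test of edgeR). Tlr2, Tlr9, Tlr13 and Cd14 fell more than 2-fold and no member rose more than 2-fold, against 5.3% and 1.37% of all genes tested. In 8 of the 10 genes every DB2313 library lay below every control library, which held for 27.5% of all genes tested, and in Tlr1 all DB2313 libraries lay above all control libraries, which held for 25.6%. The median log2 fold change was -0.82 over the 10 genes and 0.02 over all genes tested. Together they took 0.0577% to 0.0588% of the counts of a control library and 0.0381% to 0.0391% of a DB2313 library, and a single member was counted between 222 and 2188 times in a library. Spi1 itself went from 286.3 ± 6.75 to 155.6 ± 6.20 CPM (SD, n = 3 each), a log2 fold change of -0.88 (standard error 0.04, adjusted p = 2.58e-15).

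**Figure D1:**
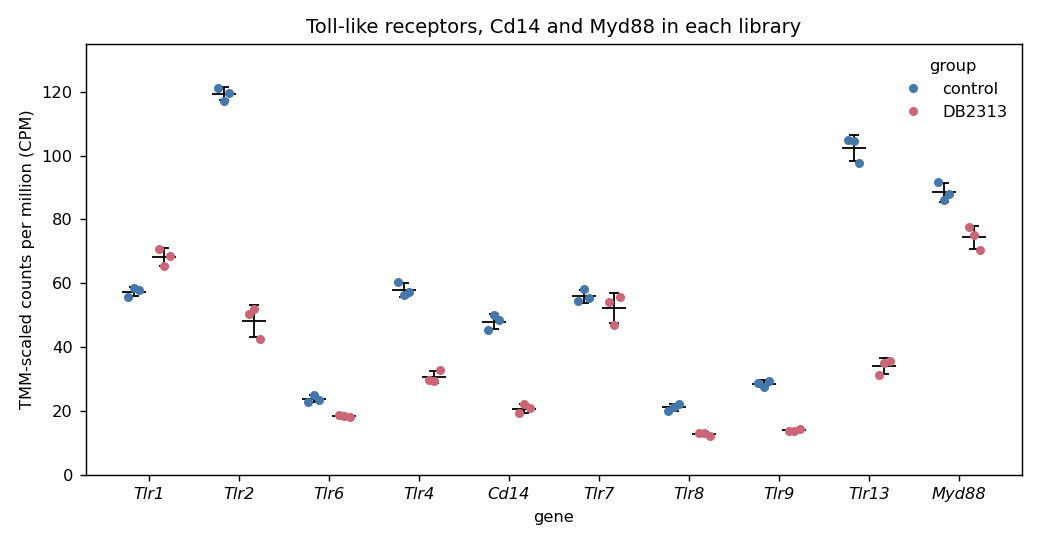
TMM-scaled counts per 1000000 (CPM, vertical axis) of the 10 genes in each library, with a point for each library, blue for control and red for DB2313, a black line for the mean and bars for 1 SD (n = 3 each). The DB2313 points lie below the control points in 8 genes and above them in Tlr1, and the 2 ranges overlap in Tlr7.

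Tlr2 pairs with Tlr1 to bind triacylated lipopeptides and with Tlr6 to bind diacylated ones, and it had the highest level per length of the 8 Toll-like receptors in the control libraries. Tlr2 (ENSMUSG00000027995, GRCm38, chromosome 3, 83836272 to 83841767, minus strand) was at 121.3, 117.2 and 119.6 CPM in the control libraries and at 50.4, 51.9 and 42.5 CPM in the DB2313 libraries. The groups were far apart, and the lowest value was that of DB2313 replicate 3. The fall was 2.48-fold (log2 fold change -1.31, standard error 0.06, adjusted p = 4.40e-15).

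Its partner genes Tlr1 and Tlr6 lie beside each other on the minus strand of chromosome 5. Tlr1 (ENSMUSG00000044827, 64924679 to 64933563) was at 55.8, 58.4 and 57.8 CPM in the control libraries and at 70.9, 65.3 and 68.6 CPM with DB2313. It was the only member that rose, with a log2 fold change of 0.25 (standard error 0.05, adjusted p = 0.000427), although it was at -0.35 (adjusted p = 3.11e-06) when scaling used only the 20 T cell genes. That scaling moved the median of all genes from 0.02 to -0.58. Tlr6 (ENSMUSG00000051498, 64952031 to 64960097) was at 22.9, 25.1 and 23.6 CPM in the control libraries and at 18.6, 18.5 and 18.04 CPM with DB2313. This was a fall of 1.297-fold (log2 fold change -0.38, standard error 0.08, adjusted p = 0.000637) with no overlap between the groups. Tlr1 and Tlr6 are close paralogs, so the division of reads between them is uncertain wherever their sequences are identical.

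The ratio of Tlr1 to Tlr2 within a library does not depend on how libraries are scaled. After division by gene length, as deposited, it was 0.414, 0.449 and 0.435 in the control libraries and 1.27, 1.13 and 1.45 with DB2313. Tlr1 was thus below Tlr2 in every control library and above it in every DB2313 library. The ratio of Tlr6 to Tlr2 went from 0.162 ± 0.0102 to 0.310 ± 0.0290, and that of Tlr1 to Tlr6 from 2.68 ± 0.0723 to 4.13 ± 0.180 (SD, n = 3 each). In 7 pairs of members compared in this way the groups did not overlap. Each had p = 0.1 in a two-sided exact permutation test, the smallest p that 3 against 3 allow. It was 0.1 also after Benjamini-Hochberg adjustment over the 7 pairs. The pairs were chosen after the values of the members were seen, and the other pairs were not compared. The lack of overlap is therefore a description, and no conclusion is drawn from these p-values.

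**Figure D2:**
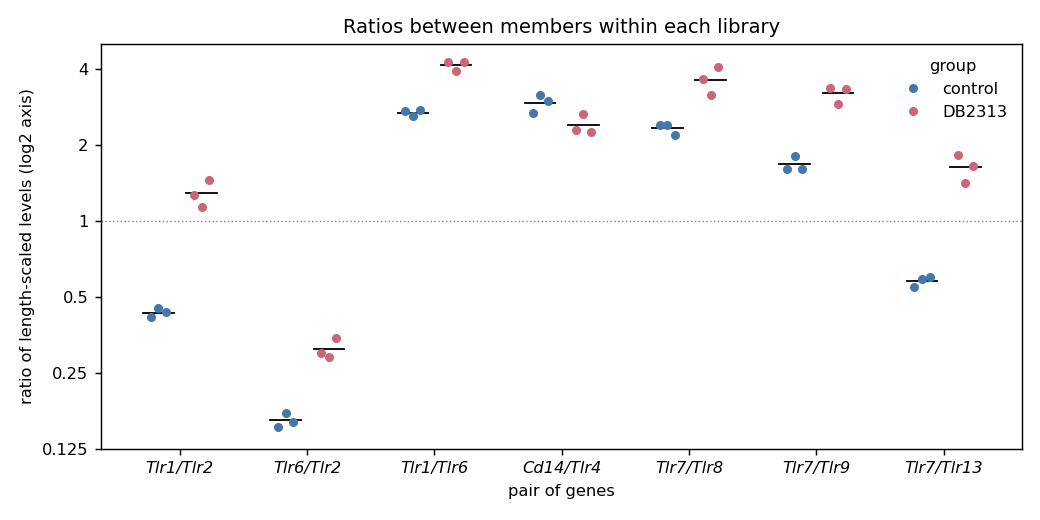
Ratio of the length-scaled levels of 2 members within each library (vertical axis, log2 scale) for 7 pairs of genes, with a point for each library, blue for control and red for DB2313, and a black line for the mean of 3. Tlr1/Tlr2 and Tlr7/Tlr13 lie below 1 in the control libraries and above 1 in the DB2313 libraries, and Cd14/Tlr4 is the pair whose groups lie closest together.

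Tlr4 is the receptor of lipopolysaccharide and works with Cd14 and with Ly96 (MD-2). Tlr4 (ENSMUSG00000039005, plus strand of chromosome 4 from 66827584 to 66930284) was at 60.4, 56.2 and 57.3 CPM in the control libraries and at 29.7, 29.4 and 32.9 CPM with DB2313. The groups did not overlap, and the fall was 1.89-fold (log2 fold change -0.92, standard error 0.07, adjusted p = 3.45e-11). Cd14 (ENSMUSG00000051439, minus strand of chromosome 18 from 36725074 to 36726736 in the deposited table, which differs slightly from GENCODE M21) was at 45.4, 49.98 and 48.4 CPM in the control libraries and at 19.2, 22.1 and 20.9 CPM with DB2313. Again every DB2313 library was below every control library, by 2.31-fold in the fit (log2 fold change -1.21, standard error 0.07, adjusted p = 1.77e-12). The length-scaled ratio of Cd14 to Tlr4 was 2.66, 3.14 and 2.98 in the control libraries and 2.29, 2.65 and 2.24 with DB2313, so that the highest DB2313 value was just under the lowest control value. Ly96 was chosen for naming as the partner of both, after its values were seen. It was counted 82 to 137 times in a control library and 67 to 78 times in a DB2313 library (log2 fold change -0.71, standard error 0.18, adjusted p = 0.00266).

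The endosomal receptors sense nucleic acids: Tlr7 and Tlr8 single-stranded RNA, Tlr9 unmethylated CpG DNA, and Tlr13 bacterial ribosomal RNA. Tlr13 (ENSMUSG00000033777, plus strand of the X chromosome from 106143204 to 106160493) was at 105.0, 104.6 and 97.8 CPM in the control libraries and at 31.3, 35.2 and 35.7 CPM with DB2313. This was the largest fall among the 10 genes, 3.01-fold (log2 fold change -1.59, standard error 0.06, adjusted p = 1.43e-16), and the groups were well separated. Tlr9 (ENSMUSG00000045322, plus strand of chromosome 9 from 106222598 to 106226883) was at 28.9, 27.4 and 29.5 CPM in the control libraries and at 13.9, 13.8 and 14.3 CPM with DB2313. The fall was 2.05-fold (log2 fold change -1.03, standard error 0.08, adjusted p = 3.46e-10), just past 2-fold. When the fold change was tested against 2-fold with glmTreat, Tlr2, Tlr13 and Cd14 passed and Tlr9 did not (adjusted p of 1), and 3 members in place of 4 fell more than 2-fold with library size or upper quartile scaling.

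Tlr7 and Tlr8 are neighbours on the minus strand of the X chromosome but differed in their response. Tlr7 (ENSMUSG00000044583, 167304929 to 167330558) was at 54.3, 58.1 and 55.3 CPM in the control libraries and at 54.3, 46.9 and 55.7 CPM with DB2313. These ranges overlapped. DB2313 replicate 2 was lowest, replicate 1 was just under the lowest control library, and replicate 3 lay within the control range. The log2 fold change of -0.09 did not pass the test (standard error 0.06, 95% interval -0.23 to 0.04, adjusted p = 0.245), an interval that leaves room for a fall of up to 0.23 on the log2 scale. It was at 0.00033 with library size scaling and, past the threshold, at -0.70 (adjusted p = 9.00e-10) with scaling to the T cell genes. Tlr8 (ENSMUSG00000040522, 167242696 to 167264329) was at 19.95, 21.3 and 22.2 CPM in the control libraries and at 13.1, 13.1 and 12.1 CPM with DB2313, a fall of 1.66-fold without overlap (log2 fold change -0.73, standard error 0.09, adjusted p = 7.65e-07). The length-scaled ratio of Tlr7 to Tlr8 rose from 2.33 ± 0.116 to 3.61 ± 0.458, that of Tlr7 to Tlr9 from 1.67 ± 0.118 to 3.19 ± 0.246, and that of Tlr7 to Tlr13 from 0.576 ± 0.0268 to 1.63 ± 0.210 (SD, n = 3 each). All 3 are among the 7 pairs tested above.

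Upstream sequence is shown for Tlr13 and Tlr9, whose falls exceeded 2-fold and whose windows hold GAGGAA, a motif that Spi1 binds. It is also shown for Tlr2, which fell more than 2-fold without GAGGAA in its window, and for Tlr1, which rose with it. Other forms of the Spi1 site were not searched, so a window without GAGGAA may still hold one. Promoter windows of 250 bases before a start site were available from RefSeq (GRCm38.p6) for 7 of the 10 genes, in 9 windows; those of Tlr4, Tlr7 and Cd14 were not among them. Only bases outside the deposited gene span are printed, 5′ to 3′ on the strand of the gene, with the motif GAGGAA in capitals. The windows printed are chrX:106143025-106143203 (plus strand) for Tlr13, chr9:106222348-106222597 (plus strand) for Tlr9, chr3:83841768-83841858 (minus strand) for Tlr2 and chr5:64933564-64933808 (minus strand) for Tlr1.
Tlr13: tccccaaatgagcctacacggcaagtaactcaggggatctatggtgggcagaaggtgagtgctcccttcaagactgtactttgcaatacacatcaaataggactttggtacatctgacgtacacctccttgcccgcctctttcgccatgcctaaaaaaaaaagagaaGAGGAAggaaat
Tlr9: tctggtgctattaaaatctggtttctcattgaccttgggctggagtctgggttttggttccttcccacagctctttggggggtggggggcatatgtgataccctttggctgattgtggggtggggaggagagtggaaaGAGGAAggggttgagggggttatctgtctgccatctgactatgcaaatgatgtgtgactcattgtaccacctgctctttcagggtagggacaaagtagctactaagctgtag
Tlr2: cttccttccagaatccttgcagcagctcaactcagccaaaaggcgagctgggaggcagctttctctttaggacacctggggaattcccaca
Tlr1: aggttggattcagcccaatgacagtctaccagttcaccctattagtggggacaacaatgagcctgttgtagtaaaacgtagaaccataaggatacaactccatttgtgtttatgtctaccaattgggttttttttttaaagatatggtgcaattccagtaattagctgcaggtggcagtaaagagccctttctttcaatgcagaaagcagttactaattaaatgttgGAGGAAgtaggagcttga
Searched on both strands over the full 250 bases, GAGGAA began 83 bases before the start of Tlr13, 112 before that of Tlr9, 23 before one of 2 starts of Tlr1 and, on the opposite strand, 77 before that of Tlr8. It was in 4 of the 9 windows and in 23.3% of the 32851 windows of all genes, and genes that fell and the gene that rose were both among the 4. These letters are a description of the windows, and binding was not measured here.

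Myd88 is the adaptor of all 8 receptors, and its own level changed little. Myd88 (ENSMUSG00000032508, minus strand of chromosome 9 from 119335934 to 119341411) was at 91.7, 86.0 and 87.9 CPM in the control libraries and at 77.7, 75.2 and 70.5 CPM with DB2313. The groups did not overlap, with a log2 fold change of -0.25 (standard error 0.05, adjusted p = 0.000181). Of the 2576 exon bases of Myd88 in GENCODE release M21, 290 (11.3%) are also exonic in Acaa1a on the opposite strand, and whether the counting used strand is not given in the sources used here. Acaa1a changed by -0.13 on the log2 scale (standard error 0.04, adjusted p = 0.0141), which did not pass with library size or upper quartile scaling. Slc22a14, which spans Myd88 on the same strand, had no counts. None of the other 9 members overlapped another gene of the table.

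**Figure D3:**
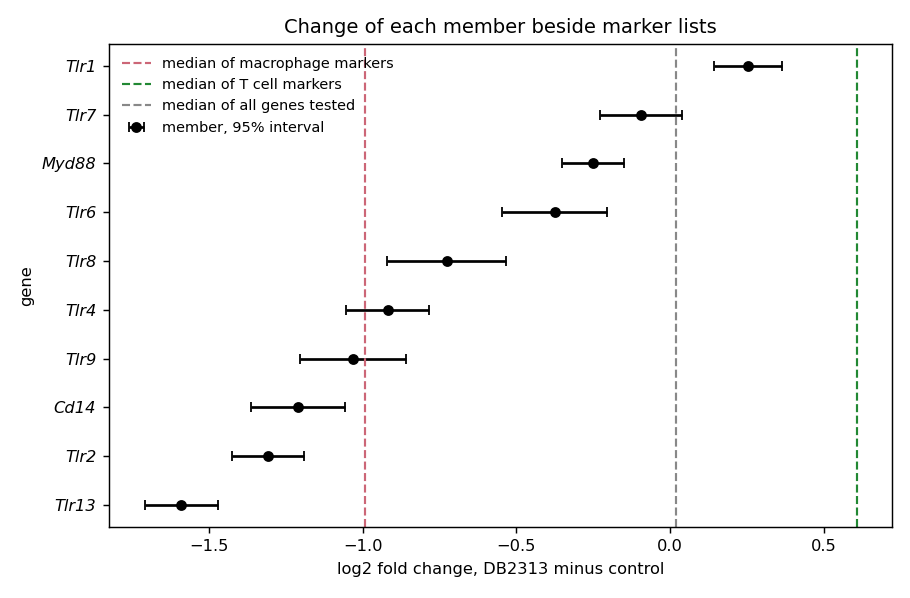
Log2 fold change of each member, DB2313 minus control (horizontal axis), with its 95% interval from edgeR (n = 3 each), in order of size. Dashed lines mark the medians of the macrophage genes (-0.99), all genes tested (0.02) and the T cell genes (0.61): Tlr13, Tlr2 and Cd14 lie wholly below the first line, Tlr4 and Tlr9 span it, and Tlr8, Tlr6, Myd88, Tlr7 and Tlr1 lie to its right. The spread of the lists is not drawn, and single macrophage genes ranged from -2.16 to 1.44.

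The spread among the members was wide beside their errors. The 95% intervals of Tlr13 (-1.71 to -1.47), Tlr2 (-1.43 to -1.19) and Cd14 (-1.36 to -1.06) lay wholly below the median of the macrophage genes at -0.99, and those of Tlr4 (-1.05 to -0.78) and Tlr9 (-1.20 to -0.86) spanned it. The intervals of Tlr8 (-0.92 to -0.53), Tlr6 (-0.55 to -0.20), Myd88 (-0.35 to -0.15), Tlr7 and Tlr1 (0.14 to 0.36) lay above it. All 10 lay below the median of the T cell genes at 0.61. These medians leave out the spread of the lists. Single macrophage genes ranged from -2.16 to 1.44, which holds the changes of all 10 members. Single T cell genes ranged from 0.32 to 0.74, and the interval of Tlr1 reached into that range.

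Levels of different genes were compared per kilobase of the deposited gene length (CPM per kilobase). In the control group the order was Tlr2 (39.6 ± 0.681), Myd88 (34.4 ± 1.13), Cd14 (30.5 ± 1.46), Tlr13 (23.8 ± 0.939), Tlr1 (17.1 ± 0.416), Tlr7 (13.7 ± 0.475), Tlr4 (10.4 ± 0.392), Tlr9 (8.22 ± 0.310), Tlr6 (6.40 ± 0.294) and Tlr8 (5.90 ± 0.312) (SD, n = 3). The last 2 were the only neighbours in this order whose ranges over the 3 libraries overlapped. In the DB2313 group Myd88 came first (28.9 ± 1.42), followed by Tlr1 (20.4 ± 0.840), Tlr2 (16.0 ± 1.67), Cd14 (13.2 ± 0.918), Tlr7 (12.8 ± 1.15), Tlr13 (7.92 ± 0.552), Tlr4 (5.52 ± 0.353), Tlr6 (4.94 ± 0.0829), Tlr9 (4.02 ± 0.0803) and Tlr8 (3.56 ± 0.169) (SD, n = 3). Here Cd14 and Tlr7 were the neighbours whose ranges overlapped. Tlr1 moved from rank 5 to rank 2, and Tlr2 from rank 1 to rank 3.

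For the 3 members with the largest fold changes, the genes with the most similar pattern over the 6 libraries were sought among 9334 protein-coding genes that averaged 10 CPM or more, by the root mean square distance of centred log2 CPM. Those nearest to Tlr13 were Zfp366 (distance 0.0447) and Tbc1d9 (0.0532), those nearest to Tlr2 were Saa3 (0.0348) and Arhgap6 (0.0377), and those nearest to Cd14 were Cxcl16 (0.0375) and Entpd1 (0.0521). Their log2 fold changes were -1.66 in Zfp366, -1.504 in Tbc1d9, -1.25 in Saa3, -1.38 in Arhgap6, -1.15 in Cxcl16 and -1.19 in Entpd1. With 2 groups of 3, this distance mostly reflects the size of the group difference.

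The other genes of the pathway were followed in lists of 45 genes, all tested. Of these, 23 were lower, 8 were higher and 14 did not pass, where 24.6% of all genes tested were lower and 20.8% were higher. The median log2 fold change of the 45 genes was -0.14, against 0.02 for all genes tested. Falls of more than 2-fold were seen in 5 of them (Tlr5, Tlr11, Cd36, Ticam2 and Irf5), against 5.3% of all genes tested. Ticam2 was short of 2-fold with library size (log2 fold change -0.92) and upper quartile scaling (-0.95), as was Irf5 with library size scaling (-0.97). No gene of these lists rose more than 2-fold, against 1.37% of all genes tested. The share of lower genes among all genes called was 54.2% with TMM, 36.6% with library size scaling, 41.8% with upper quartile scaling and 98.7% with scaling to the T cell genes, which turned every rise named below into a fall, except that of Irf7 and of Lbp (0.03 and 0.04, no longer past the test) and that of Il1r1, which was at -0.03 and did not pass.

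All 4 of the remaining Toll-like receptor genes were lower, where 24.6% of all genes tested were lower. Tlr11, a sensor of protozoan profilin, had 170, 137 and 137 counts in the control group and 38, 39 and 45 with DB2313 (log2 fold change -1.92, standard error 0.17, adjusted p = 2.51e-09). Tlr5, the flagellin receptor, was sparse, with 32 to 52 counts in a control library and 12 to 26 in a DB2313 library (log2 fold change -1.24, standard error 0.35, adjusted p = 0.0053). Tlr12, which also binds profilin, changed least (30.1 ± 0.625 to 25.2 ± 0.401 CPM, log2 fold change -0.25), and did not pass with library size scaling. Tlr3, the sensor of double-stranded RNA, went from 8.86 ± 1.81 to 4.86 ± 0.566 CPM (SD, n = 3 each; log2 fold change -0.87).

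Of 8 co-receptors and chaperones, 6 were lower and 2 were higher, where 24.6% of all genes tested were lower and 20.8% were higher. Cd36, a scavenger receptor that helps Tlr2 and Tlr6 to bind lipids, went from 146.2 ± 2.61 to 30.8 ± 2.77 CPM (SD, n = 3 each), the largest change among these genes (log2 fold change -2.25, standard error 0.05, adjusted p = 6.68e-20). Unc93b1, which carries Tlr7, Tlr8, Tlr9 and Tlr13 to the endosome, went from 340.9 ± 6.01 to 192.2 ± 0.794 CPM (log2 fold change -0.83, standard error 0.03), although its client Tlr7 did not pass the test. Hsp90b1, the endoplasmic reticulum chaperone of most Toll-like receptors, changed least (log2 fold change 0.15, standard error 0.03), and Lbp, which carries lipopolysaccharide to Cd14, was at 0.64 (standard error 0.16). Of the 5 adaptors, 4 were lower, led by Ticam2, which links Tlr4 to Ticam1 (14.3 ± 1.56 to 7.10 ± 0.585 CPM, log2 fold change -1.01, standard error 0.12, adjusted p = 3.30e-07). Sarm1 was near the limit of counting and did not pass (log2 fold change 0.10, 95% interval -0.60 to 0.79).

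**Figure D4:**
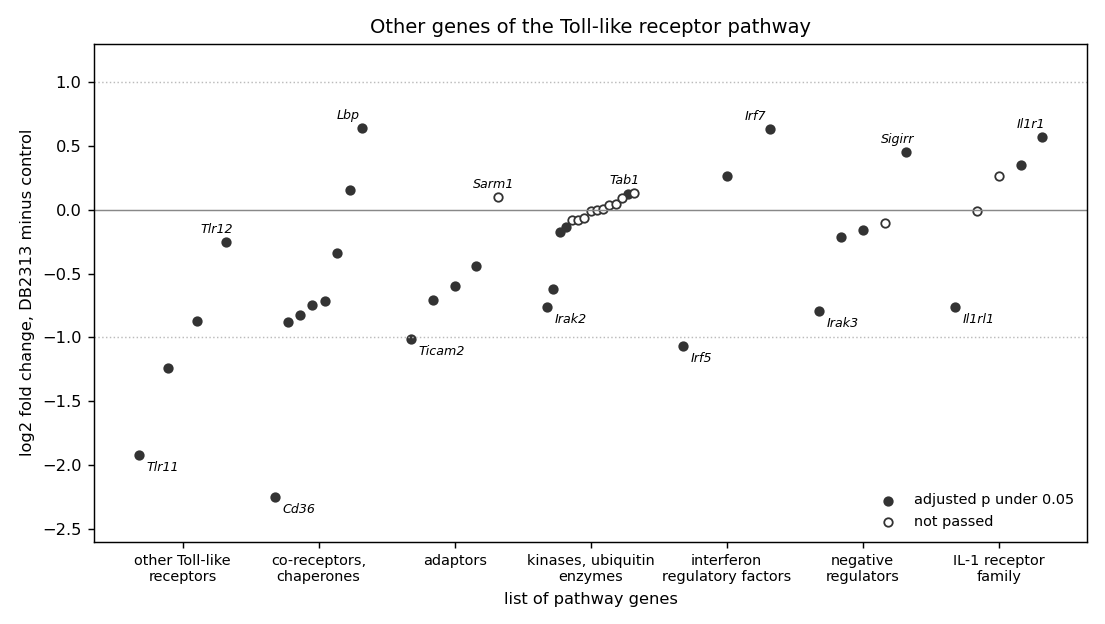
Log2 fold change, DB2313 minus control (vertical axis), of 45 other pathway genes in 7 lists (horizontal axis), filled where the adjusted p was under 0.05 and open where it was not, with the lowest and highest gene of each list named. Dotted lines mark 2-fold: all 4 other Toll-like receptors lie below 0, while 10 of the 15 kinases and ubiquitin enzymes are open points near 0.

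Of 15 kinases and ubiquitin enzymes downstream of Myd88, 4 were lower, 1 was higher (Ikbke) and 10 did not pass, where 24.6% of all genes tested were lower and 20.8% were higher. Irak2, a kinase of the Myd88 complex, fell most (70.6 ± 1.41 to 41.5 ± 2.44 CPM, log2 fold change -0.76, standard error 0.06, adjusted p = 1.16e-10), and Irak4, the kinase that binds Myd88 directly, was at -0.62 (standard error 0.07). Ikbkg, the regulatory subunit of the IκB kinase, changed least, with an interval of -0.10 to 0.10. Traf6 was at 95.2 ± 4.40 and 94.5 ± 5.53 CPM. The falls of Traf3 and Chuk did not pass with library size or upper quartile scaling, which left Irak2 and Irak4 as the 2 lower genes. Ikbke, Tab1 and Tab2 were then higher with both, and Map3k7 and Ube2n also with library size scaling.

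The interferon regulatory factors used by the pathway moved in opposite directions. Irf5, which Myd88 activates in myeloid cells, fell from 308.3 ± 3.85 to 147.0 ± 8.46 CPM (log2 fold change -1.07, standard error 0.04, adjusted p = 1.76e-16), whereas Irf7 rose from 375.7 ± 14.8 to 581.8 ± 15.4 CPM (log2 fold change 0.63, standard error 0.04) and Irf3, the factor downstream of Ticam1, was at 0.26 (standard error 0.05) (SD, n = 3 each). Of 5 negative regulators, 3 were lower and Sigirr was higher (log2 fold change 0.45, standard error 0.05), where 24.6% of all genes tested were lower and 20.8% were higher. The fall of Tollip, among the 3, did not pass with library size or upper quartile scaling. Irak3, an inhibitory member of the Irak family found mainly in myeloid cells, changed most (log2 fold change -0.79, standard error 0.09), and Tnfaip3, an enzyme that edits ubiquitin, did not pass (log2 fold change -0.11, adjusted p = 0.0805).

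Myd88 also serves the receptors of the interleukin-1 family, of which 2 of 5 were higher, 1 was lower and 2 did not pass, where 20.8% and 24.6% of all genes tested were higher and lower. Il1rap, among the latter 2, was higher with library size (adjusted p = 0.0141) and upper quartile scaling (adjusted p = 0.0255). Il1rl1, the receptor of interleukin-33, went from 52.3 ± 2.17 to 30.9 ± 0.876 CPM (log2 fold change -0.76, standard error 0.06), and Il18r1, a chain of the interleukin-18 receptor that T cells carry, from 40.1 ± 0.679 to 51.3 ± 3.88 CPM (log2 fold change 0.36, standard error 0.07) (SD, n = 3 each). Il1r1, with 52 to 102 counts in a library, was at 0.57 (standard error 0.20, adjusted p = 0.0194). Il18rap, the other chain of the interleukin-18 receptor, was at -0.01 with an interval of -0.14 to 0.13.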

How the data were processed

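RNA-seq of 6 samples was analysed (3 control, 3 DB2313). The authors aligned and counted the reads and deposited raw counts per gene without normalization. The submitters' processing notes name CASAVA 1.8, HISAT2 2.0.5 and featureCounts 1.5.0-p3, whereas the paper's methods name LifeScope. Build, annotation and strandedness are not given in the sources used here. Of 54409 genes shared with GENCODE M21, 98.3% had its GRCm38 coordinates, as had 9 of the 10 members (all but Cd14).

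Genes were tested with edgeR 4.0.16 in R 4.3.3 (filterByExpr, TMM, glmQLFit, glmQLFTest) with Benjamini-Hochberg adjustment over all genes tested, at an adjusted p of 0.05 and, where stated, a log2 fold change beyond 1. Standard errors came from the fitted change and its F statistic. Ratios within libraries were compared with exact permutation tests (scipy 1.17.1). On simulated counts with 200 changed genes among 14883, edgeR recovered 198 and called 6 unchanged ones. Libraries of a group differed by more than sampling noise (chi-square per gene 2.54 to 4.00 within groups, 51.8 to 56.0 between them).

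Members and lists were chosen with earlier results of these data known. Named pathway genes were those past 2-fold and the largest and smallest changes of each list; Tlr3, Ly96, Unc93b1, Lbp, Irak4, Traf3, Traf6, Chuk, Ikbke, Tab1, Tab2, Map3k7, Ube2n, Irf7, Sigirr, Tollip, Il18r1, Il1r1 and Il1rap were added after their values were seen, as were the pairs of members and Acaa1a. Alternatives were DESeq2 1.42.0, library size, upper quartile and T cell gene scaling, no filter, a floor of 10 counts per library, blocking on the replicate number, omitting each sample in turn and glmTreat. Macrophage RNA-seq was not analysed here. A second promoter motif that was searched is not reported here.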

Additional observations from a re-analysis of the deposited data

How the results depend on the processing

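Over 13 alternative fits, 127 of 130 fold changes of single members kept both sign and call. The exceptions were Tlr1 at -0.35 and Tlr7 at -0.70 with T cell gene scaling, and Tlr7 at 0.00033 with library size scaling. With each sample left out in turn, 8 members were lower and 1 was higher in each of the 6 fits, and Tlr7 ranged from -0.14 to -0.02. In these fits 3279 to 3516 of all genes were lower and 2558 to 2894 were higher, with 15217 to 15270 genes tested. With T cell gene scaling, 0 members were higher, and 41 pathway genes were lower and 0 higher, in place of 23 and 8. Among all 14883 genes tested, 11616 were lower and 156 higher with that scaling, in place of 3667 and 3096. With library size scaling, 13 pathway genes were higher. Scaling to the T cell genes lowers every fold change by construction, since these genes took a larger share of the DB2313 libraries. Samples with the same replicate number shared no clear deviation (correlations between -0.01 and 0.003 over 14883 genes). This cannot show whether the cultures were set up in pairs. With the replicate numbers as a block, 8 members were lower and 1 was higher, as without it, and 3525 of all genes were lower and 2912 higher. Among all genes, 4931 were higher with library size scaling against 3096. The replicates number 3 in a group, and at 12 to 52 counts Tlr5 had a standard error of 0.35, so that smaller changes of such sparse genes could not be seen.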

Other observations

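Sensors of other families that recognise microbial molecules, and genes that signal for them, were listed as well, with earlier results of these data known. Of 9 such genes, Nod2 (a cytosolic sensor of bacterial wall peptides), Mavs and Tmem173 (Sting) were lower, Ddx58, Ifih1 and Dhx58 (cytosolic sensors of viral RNA and their relative) were higher, and Nod1, Ripk2 and Mb21d1 did not pass the test (adjusted p below 0.05 from edgeR), where 24.6% of all genes tested were lower and 20.8% were higher. Nod2 went from 31.8 ± 0.762 to 20.8 ± 0.890 CPM (SD, n = 3 each), a log2 fold change of -0.61 (standard error 0.08), and Dhx58 from 79.3 ± 5.39 to 103.8 ± 2.64 CPM, a log2 fold change of 0.39 (standard error 0.05). None changed more than 2-fold, and the median was 0.03. Mavs did not pass with library size or upper quartile scaling, nor Tmem173 with library size scaling, with which Nod1 was higher (0.16, adjusted p = 0.0203), and Ddx58, Ifih1 and Dhx58 were below 0 (-0.29, -0.39 and -0.22) with scaling to the T cell genes.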
